A study of Mus musculus with 126 samples.

Results

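Described here are 97 genes of mouse embryonic stem cells that had no read in the untreated state and were read after inhibition of histone deacetylases. They were selected on their read counts. A gene entered with a count of 0 in each of the 4 control RNA-seq libraries and a summed count of at least 10 over the 4 treated ones. Genes whose names begin with Olfr, Vmn, Mir, Mage, Rhox, Hox or Tex were left out, and 97 of the 23420 genes in the count table remained. The rule used the contrast between treatment and control, so values and calls for that contrast stand only as a description.

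The cells were the J1 line of mouse embryonic stem cells, either wild type or with the DNA methyltransferase genes Dnmt1, Dnmt3a and Dnmt3b all knocked out in the same line (triple knockout, TKO). Cells of both genotypes were kept for 36 h with the inhibitor Trichostatin A (TSA), labelled as 5 ng/µl, or in 0.0033% DMSO as control. All were grown on gelatin in serum with leukaemia inhibitory factor, and each of the 4 groups had 2 libraries, given as biological replicates. Whether the TKO line is 1 clone is not stated in the labels. Of the 126 samples of the series, the 8 RNA-seq libraries were used, and the other 118, from chromatin assays, were not analysed here.

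TSA blocks the zinc-dependent histone deacetylases, so acetyl groups accumulate on histones, a state found at transcribed genes. DNA methylation of CpG sites is a separate mark that goes with silent promoters, and the 3 enzymes missing in TKO cells write and maintain it. An embryonic stem cell keeps most genes of differentiated tissues silent, which makes the loss of silence under an inhibitor readable as counts that appear from 0.

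Total counts ran from 13280631 to 15542527 per library. Counts of Dnmt1, Dnmt3a and Dnmt3b were lower in each TKO library than in each wild type library. H1f0, a linker histone gene known to respond to deacetylase inhibitors, had mean levels of 45.2 and 76.8 CPM (normalised read counts relative to the library total) in the wild type and TKO controls, and of 109 and 167 CPM in the same genotypes with TSA. All 16 pluripotency genes examined were detected in every library, with a summed level of 4934 to 6161 CPM in DMSO and 2717 to 3151 CPM with TSA. In RNA from bulk cultures, fewer cells that express a gene and less RNA per cell cannot be told apart.

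Genes that went from 0 to being read were mostly found in one direction. With the named prefixes left out, 2615 genes had no count in DMSO, and the 97 members were 3.71% of them. A further 885 had 1 to 9 counts with TSA, and 1633 had none. The mirror of the rule, a count of 0 in all 4 TSA libraries and at least 10 in DMSO, was met by 0 of 1878 genes, the highest such gene having 9 counts. At a threshold of 5 these directions gave 238 and 11 genes, and at 20 they gave 22 and 0. Split by genotype instead of treatment, 29 genes had no count in any wild type library and at least 10 in TKO, against 8 in the opposite direction. These counts are descriptions of the libraries and carry no test.

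**Figure D1:**
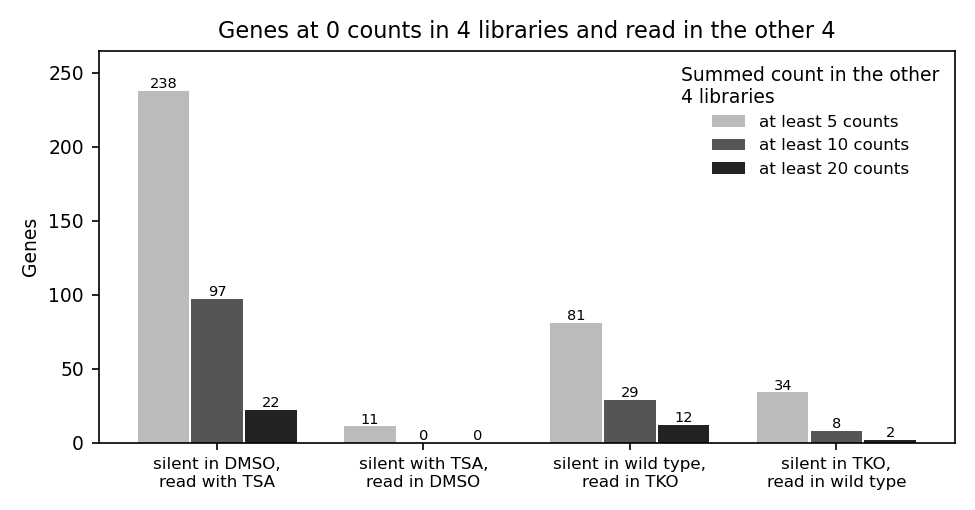
Number of genes (vertical axis) with a count of 0 in 4 libraries and a summed count of at least 5, 10 or 20 (grey shades) in the other 4, for the split by treatment in both directions and the split by genotype in both directions. At 10 counts, 97 genes were silent in DMSO and read with TSA, and 0 genes showed the reverse.

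Reads per member were few. The summed count over the 4 TSA libraries had a median of 14 and ran from 10 to 87, with 54 members at 10 to 14, 21 at 15 to 19 and 22 at 20 or more. The mean level over those libraries had a median of 0.223 CPM and a maximum of 1.40 CPM. A count of 0 over the 4 DMSO libraries allows up to 3 counts, or 0.0516 CPM, counting error only. Against that limit, scaled by total counts, the observed TSA counts were 3.33-fold to 29.0-fold higher, with a median of 4.67. The TSA counts were selected by the rule and carry an error of their own, so these are not minimum folds. At the edge of the rule stood 20 members with exactly 10 counts and 9 genes just outside with 9. Those just outside included Spam1, a sperm hyaluronidase gene, with 0 and 1 counts in wild type and 5 and 3 in TKO, and Oog4, an oocyte gene, with 2, 3, 2 and 2. Without the omission of prefixes 106 genes met the counts, the additional 9 being 6 olfactory receptor genes and 3 microRNA genes.

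For comparison across all genes, edgeR's quasi-likelihood test called 27.0% of the 15822 genes past its low-count filter higher with TSA in wild type and 30.8% in TKO. Only 6 members passed that filter, and all 6 were called in each genotype. Without the filter, 20430 genes were tested, of which 21.3% were called higher with TSA in wild type and 23.7% in TKO. Of the 97 members, 33 and 42 were called on that footing. The rule used this contrast, so these calls test nothing and nothing is read from them.

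The 3 members with the most reads were a non-coding RNA, a sperm gene and a hair gene. 1700086L19Rik, a long non-coding RNA gene on chromosome 12 (74284276 to 74295950, plus strand), had 13 and 16 counts in the wild type TSA libraries and 18 and 40 in the TKO ones. Cypt2, a gene of the cysteine-rich perinuclear theca family of sperm heads, lies on chromosome X (105499772 to 105500637, plus strand) and had 5 and 8 counts in wild type and 26 and 47 in TKO. Krtap4-13, a keratin-associated protein gene of hair on chromosome 11 (99809078 to 99809896, minus strand), had 16 and 23 counts in wild type and 13 and 29 in TKO. The TKO libraries lay above the wild type ones for the first pair of genes and overlapped them for Krtap4-13. Per kilobase of exon, Cypt2 collected 124 counts, Krtap4-13 collected 98.9 and 1700086L19Rik collected 83.2, against a median of 7.65 over the members.

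Their promoters are printed because these 3 members differ in CpG content, CpG being the substrate of the enzymes missing in TKO cells. The windows run from 250 bases before to 50 bases after the RefSeq start (GRCm38.p6, the assembly of the mm10 build), 5′ to 3′ on the gene's strand, with each CpG in capitals. 1700086L19Rik (chr12:74284026-74284325, plus strand) holds 25 CpG sites, Cypt2 (chrX:105499522-105499821, plus strand) holds 2, and Krtap4-13 (chr11:99809847-99810146, minus strand) holds 0.
1700086L19Rik: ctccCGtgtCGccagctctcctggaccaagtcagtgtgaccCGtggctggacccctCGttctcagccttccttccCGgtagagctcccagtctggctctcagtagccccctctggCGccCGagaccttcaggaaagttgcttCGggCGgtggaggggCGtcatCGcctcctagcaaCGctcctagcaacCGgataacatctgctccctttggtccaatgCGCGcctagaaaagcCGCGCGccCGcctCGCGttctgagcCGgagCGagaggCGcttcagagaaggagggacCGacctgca
Cypt2: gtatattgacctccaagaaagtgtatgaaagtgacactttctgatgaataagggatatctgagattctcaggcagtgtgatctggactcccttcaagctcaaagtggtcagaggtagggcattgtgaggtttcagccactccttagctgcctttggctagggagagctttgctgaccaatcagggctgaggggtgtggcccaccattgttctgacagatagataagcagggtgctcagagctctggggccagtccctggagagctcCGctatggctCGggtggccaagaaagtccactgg
Krtap4-13: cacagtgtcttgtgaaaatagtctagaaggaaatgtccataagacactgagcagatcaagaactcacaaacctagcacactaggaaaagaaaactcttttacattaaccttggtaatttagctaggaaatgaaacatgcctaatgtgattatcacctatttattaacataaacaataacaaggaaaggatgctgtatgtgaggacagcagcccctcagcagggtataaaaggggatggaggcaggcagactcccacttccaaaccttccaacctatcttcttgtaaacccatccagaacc
The Krtap4-13 window carries the letters of a TATA box, tataaa, shortly before the start, and the windows of 1700086L19Rik and Cypt2 do not on either strand.

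Next in number of reads came genes of immunity, heart, sperm and brain. Pglyrp2, which encodes a peptidoglycan-cleaving amidase of liver and innate immunity, had 4 and 11 counts in wild type and 10 and 26 in TKO. Kcne1, the subunit that slows a cardiac potassium channel, had 12 and 12 against 6 and 18. Crisp2, a secretory protein gene of the sperm acrosome, had 3 and 7 against 7 and 26. In each of these genes the genotypes overlapped or met, and the second TKO library was the highest.

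C1qtnf3, a cartilage-enriched relative of complement C1q, was nearly even, with 9 and 12 counts in wild type and 8 and 9 in TKO. Qrfpr, the receptor for the neuropeptide QRFP, had 7, 7, 7 and 13, and Grm3, a metabotropic glutamate receptor gene, had 2, 6, 6 and 20. C87499, named Pramel32 in RefSeq and one of a large family of PRAME-like genes, had 2, 9, 5 and 17. Slamf7, a receptor of lymphocytes and natural killer cells, had 2, 11, 7 and 11, and Adam18, a sperm surface protein gene, had 6, 8, 2 and 9. The last 6 genes had overlapping or touching genotypes.

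**Figure D2:**
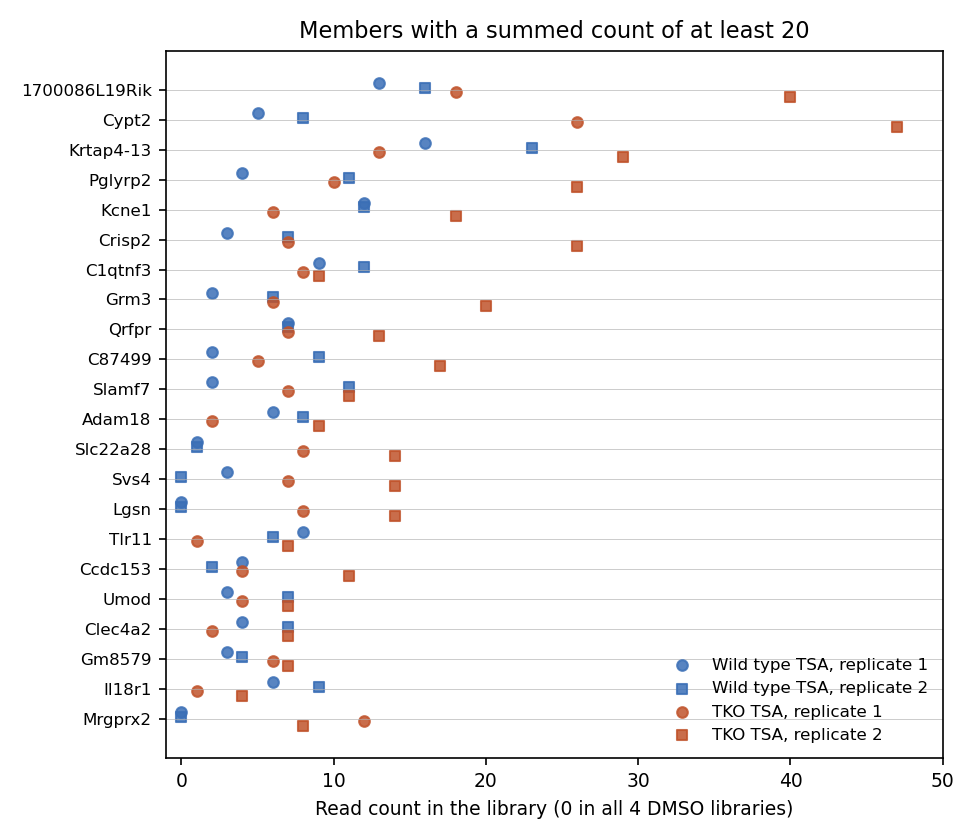
Read count (horizontal axis) in each of the 4 TSA libraries for the 22 members with a summed count of at least 20, ordered by that sum, with wild type in blue and TKO in orange, replicate 1 as circles and replicate 2 as squares. All 22 had 0 counts in the 4 DMSO libraries, and Cypt2 in TKO replicate 2 is the highest point, at 47.

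Most members were read in several libraries. Of the 97, 75 had a count in all 4 TSA libraries, 16 in 3 and 6 in 2. Both wild type libraries read 79 members and both TKO libraries read 93. The members together collected 299 and 427 counts in the wild type TSA libraries and 378 and 675 in the TKO ones, or 18.3 and 29.0 CPM against 25.6 and 42.4 CPM. These sums averaged 23.6 ± 7.60 CPM in wild type (SD, n = 2) and 34.0 ± 11.9 CPM in TKO (SD, n = 2) and overlapped between the genotypes.

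Replicates of 1 genotype also differed. In both genotypes the second library was the higher one, for 65 of 97 members in wild type and 67 in TKO, and TKO replicate 2 was the highest of the 4 libraries for 42. The same libraries led elsewhere in the silent part of the genome: genes with 1 to 9 counts summed to 477 and 574 in wild type and 486 and 695 in TKO. The number of genes detected was 18590 and 18774 in the wild type TSA libraries, 18712 and 18940 in the TKO ones, and 17531 to 17924 in DMSO. Olfactory receptor genes, outside the rule, summed to 12.2 to 24.9 CPM in DMSO and 21.4 to 52.7 CPM with TSA. The part of these library differences in the members' counts was not tested.

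**Figure D3:**
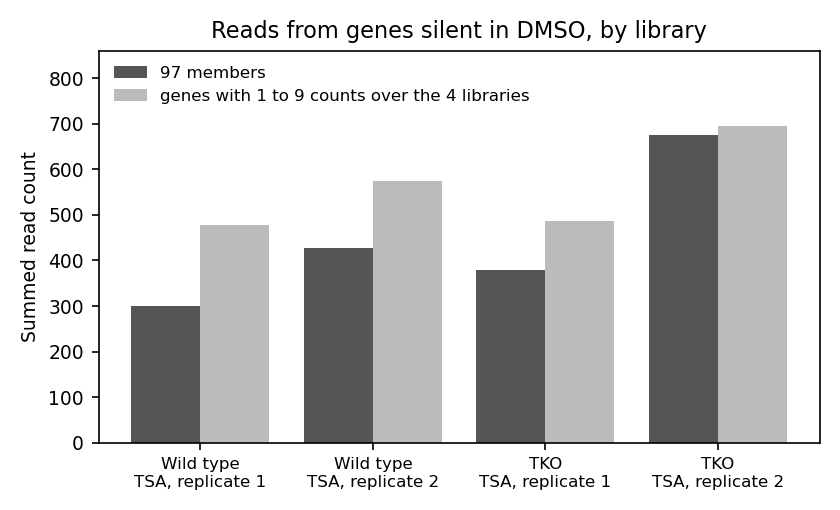
Summed read count (vertical axis) in each TSA library for the 97 members (dark bars) and for genes that were silent in DMSO and had 1 to 9 counts over the 4 TSA libraries (light bars). TKO replicate 2 is the highest in both sets, with 675 and 695 counts.

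By known function, 61 members were placed in 11 classes of tissue or protein after their names were seen, and 15 other named genes were not placed. The remaining 21 had provisional names in the count table and were not placed either, although RefSeq gives some of them another symbol. The classes therefore show what the members are and support no statement of enrichment. The most populated class held 16 genes of immunity, which collected 57 and 74 counts in wild type and 51 and 98 in TKO. Besides Pglyrp2 and Slamf7 it held Slamf1, a receptor of lymphocytes, with 6 and 2 counts in wild type and 2 and 2 in TKO. Tlr11, a sensor of microbial profilin, had 8 and 6 against 1 and 7. Il18r1, a subunit of the interleukin-18 receptor, had 6 and 9 against 1 and 4, below wild type in both TKO libraries. Il3, a cytokine gene of activated T cells, went the other way with 0 and 1 against 6 and 5. The class was mixed, 4 of its members lying above wild type in both TKO libraries and 6 below, beside 28.2% above and 27.3% below among all 20430 genes with a count. Members could enter through 1 genotype, as Il3 did through TKO and Il18r1 through wild type, so these numbers are descriptions.

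The class of testis, epididymis and seminal vesicle held 8 genes, with 22 and 34 counts in wild type and 52 and 123 in TKO. It comprised Cypt2, Crisp2, Adam18, Akap4, Lrrc52, Spag11b, Svs4 and Speer7-ps1. Akap4 encodes the anchoring protein of the sperm fibrous sheath and had 2 and 4 against 1 and 7 counts. Svs4, a seminal vesicle secretory protein gene, had 3 and 0 against 7 and 14. Lrrc52, an accessory subunit of the sperm potassium channel, had 0 and 2 against 3 and 5. The mean was higher in TKO for 7 of the 8, and both TKO libraries lay above both wild type ones for 4 and below them for 0, against the same 28.2% and 27.3% of all genes. Cypt2 carried a good part of this, the remaining 7 genes having 17 and 26 against 26 and 76 counts. Svs4 and Speer7-ps1 reached 10 counts only through TKO, the group in which they are high. Lrrc52, with sums of 2 in wild type and 8 in TKO, met the rule mostly through TKO. The separation in this class is therefore a description, and nothing is read from it against the share of all genes.

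Among 5 genes of the eye, a class likewise drawn up after the names were seen, both TKO libraries lay above both wild type ones for 4 and below for 0 (28.2% and 27.3% of all genes). Lgsn, which encodes the lens protein lengsin, had no count in wild type and 8 and 14 in TKO. Kcnj13, a potassium channel of the retinal pigment epithelium, had 1 and 1 against 7 and 4, and Cryba2, a lens crystallin gene, had 2 and 1 against 3 and 7. Rd3, a regulator of photoreceptor guanylate cyclase, had 3 and 1 against 3 and 3, and its separation rests on single counts. Rbp3, the retinoid carrier between photoreceptors and pigment epithelium, had 5 and 6 against 1 and 6. Lgsn, Kcnj13 and Cryba2 reached 10 counts only through TKO, the group in which they are high. Their separation is therefore a description, and nothing is read from the class against the share of all genes.

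Hair and skin were represented by 7 genes with 30 and 40 counts in wild type and 29 and 52 in TKO. They were the keratin genes Krt24, Krt25, Krt33a and Krt82, the hair matrix genes Krtap4-13 and Krtap19-4, and Calm4, a calmodulin-like gene of the epidermis. Krt33a, a hair keratin gene, had 4 and 7 against 2 and 2, whereas Krtap19-4 had 0 and 0 against 4 and 6. The 6 G protein-coupled receptors had 17 and 28 against 38 and 46 counts, with a higher mean in TKO for 4 of the 6. Mrgprx2, with 0 and 0 against 12 and 8, gave a good part of the TKO counts and reached 10 counts only through TKO. The class also included Htr2c, a serotonin receptor of brain, with 2 and 8 against 2 and 3, and Grpr, the receptor for gastrin-releasing peptide, with 4 and 3 against 3 and 0.

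Smaller classes spread over the internal organs. The kidney class held Umod, the urinary protein uromodulin, with 3 and 7 counts in wild type and 4 and 7 in TKO. It also held Scnn1g, a subunit of the epithelial sodium channel (5 and 5 against 3 and 5), Cys1, the ciliary protein cystin (4 and 6 against 1 and 2), and Slc22a28, a member of the organic anion transporter family. Pancreatic hormones were represented by Ins2, one of the 2 mouse insulin genes, with 2 and 4 against 1 and 6, and by Ppy, pancreatic polypeptide, with 3 and 9 against 2 and 3. The liver and metabolic class held Igfbp1, a secreted binder of insulin-like growth factors (2 and 9 against 2 and 6), Acot5, Nr1h5 and Ugt2b34. Beyond these, Cldn18 and Capn8 of the stomach, Mgp, Klk4 and C1qtnf3 of cartilage and tooth, and Kcne1, Mlip, Igfn1 and Atp1b4 of heart and muscle completed the named classes. Cldn18, a tight junction gene, had 3 and 8 against 6 and 2 counts, and Igfbp1 and Cldn18 each reached 19 in sum.

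Lists of tissue genes written with earlier results of these data known gave a second view. The 10 lists held 272 genes of the table, and 81 of these had no count in DMSO. Members numbered 7 of the 81 and came from 4 lists, beside a share of 3.71% over all 2615 genes silent in DMSO. Adam18 and Akap4 came from sperm, Cryba2 and Rbp3 from retina and lens, Ins2 and Ppy from pancreas and gut, and Htr2c from neurotransmitter receptors. In the list of prolactin and placental hormone genes, 17 genes had no count in DMSO, of which 5 had 1 to 9 counts with TSA and 0 were members. The leukocyte and blood list had 10 such genes, of which 6 had 1 to 9 counts and 0 were members. The oocyte, liver and skin lists, with 8, 7 and 4 genes silent in DMSO, also held 0 members. With so few genes per list, nothing is read from a 0 against the share of all silent genes.

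Families were counted by the names in the count table, beside a share of 3.71% members over all 2615 genes silent in DMSO. Both of the 2 Slamf genes silent in DMSO were members, as were 4 of 13 Krt genes, 2 of 6 Apol genes and 2 of 48 Krtap genes. Of 19 silent Klra genes, lectin-like receptors of natural killer cells, 1 was a member (Klra7, with 4, 2, 3 and 3 counts), and of 8 silent Speer genes 1 was. No member came from 20 silent Serpin genes, 29 Defb genes, 33 Cyp2 to Cyp4 genes, 30 Tas2r genes, 20 Prl genes, 17 Mup genes or 11 Ifna genes. At the share over all silent genes, families of these sizes would give few members or none, so nothing is read from their absence. Genes named Gm followed by a number gave 9 members of 571 silent, and those named Rik gave 10 of 554. How reads that match several copies were counted is not given in the sources used here. Values of Krtap, Klra, Speer, Apol, Ugt2b, Pramel-like, Clec4a and Slc22a genes are therefore uncertain. The same holds for the families without a member.

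Members lay on 20 chromosomes. By number, chromosome 1 held 15, or 10.6% of its genes silent in DMSO, chromosome 11 held 9 (6.57%) and chromosome X held 9 (4.59%), against 3.71% over the table. Chromosomes 12 (5 members, 7.04%), 15 (5, 6.33%) and 14 (6, 4.88%) had a higher share than X. Chromosome 4 held 1 member (C87499) among its silent genes (0.543%), and chromosome Y held 0. Members lay apart from each other. With a largest gap of 500 kb, 12 members formed 4 runs and 85 stood alone. The most extended run, of 5 genes over 736.1 kb of chromosome 11 (99280093 to 100016212), crossed the type I keratin cluster with Krt24, Krt25, Gm11554, Krtap4-13 and Krt33a, and collected 24 and 36 counts in wild type and 25 and 42 in TKO. On chromosome 1, Itln1, which encodes the lectin intelectin, Slamf7 and Slamf1 lay within 283.1 kb (171518124 to 171801184), with 9 and 18 against 11 and 18 counts. Kcnj13 and Neu2 on chromosome 1 and Apol9a and Apol7e on chromosome 15 formed the remaining runs.

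Distances to genes active in DMSO were measured for each member. The nearest gene with a mean of at least 1 CPM in DMSO lay a median of 64.1 kb from a member and 94.6 kb from the other genes silent in DMSO. It lay within 10 kb for 19.6% of members and 18.4% of those others. Exons of 6 members overlapped exons of another gene (6.19%, against 15.8% of the others). Of these, Mroh2a shared 33.9% of its exon bases with Hjurp, an active gene on the opposite strand, and 1 member, Kcnj13, lay inside an active gene, Gigyf2, also on the opposite strand. Krtap4-13 and Gm11554 overlap on the same strand (21.2% of the exon bases of Krtap4-13), so reads could be split between them, and 62.0% of the exon bases of Gm15107 are shared with Ott. Whether counting used the strand is not stated, which leaves Mroh2a and Lgsn, which overlaps an antisense gene over 11.7% of its exon bases, uncertain as well.

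In exon length and share of coding genes the members stood between the other silent genes and the table. Their summed exon length had a median of 1838 bases, against 1243 bases for silent genes under 10 counts and 2247 for all genes. A longer gene collects more reads at the same level, and the rule counts reads. RefSeq lists 84 members as protein-coding (86.6%), 8 as long non-coding RNA and 5 as pseudogenes, while the share of protein-coding genes is 73.2% of the other silent genes with a RefSeq type and 87.7% of all genes with one. Single-exon genes made up 6.19% of members, below both the other silent genes (12.1%) and all genes (12.9%). The median span from first to last exon, 17770 bases, was above both, at 9095 and 15257 bases.

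A promoter window was matched for 76 of the 97 members, and 70 of those starts lay within 100 bases of the deposited gene start. The members' promoters had a median of 4.5 CpG sites, against 2 in the other silent genes and 14 over all 17657 promoters matched. The ratio of observed to expected CpG had a median of 0.255 in members, 0.167 in the other silent genes and 0.589 in all. A ratio above 0.6, a usual criterion of CpG islands, was found in 11 members (14.5%), in 4.39% of the other silent genes and in 49.2% of all. At the other end, 32 members (42.1%) had at most 3 CpG sites. The 11 CpG-rich members were led by 1700086L19Rik (0.823) and Crisp2 (0.677) in reads, and the highest ratio, 1.08, belonged to the non-coding RNA gene 4930426L09Rik with 10 counts. Limiting the members to the 70 close starts gave a median ratio of 0.247.

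**Figure D4:**
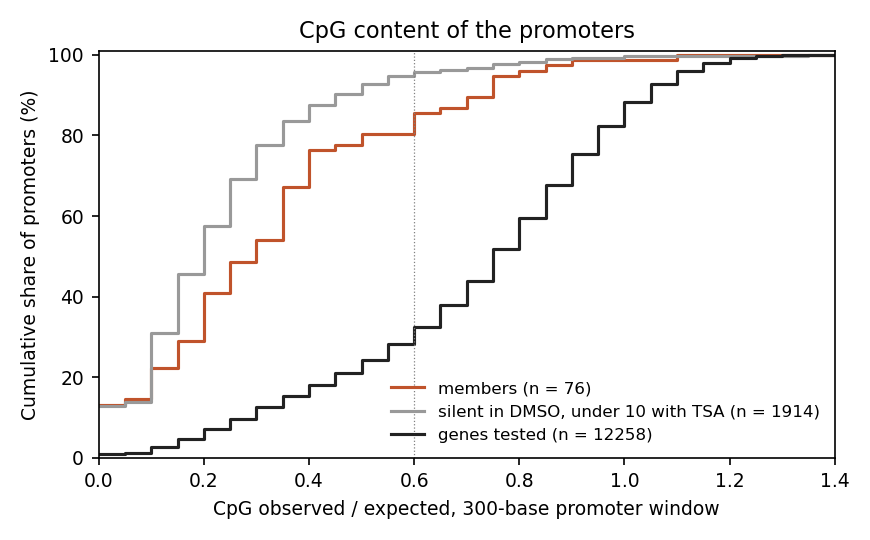
Cumulative share of promoters (vertical axis, %) at or below each ratio of observed to expected CpG (horizontal axis, steps of 0.05) for the 76 members with a promoter, the 1914 other genes silent in DMSO and the 12258 genes that passed the low-count filter. The dotted line marks 0.6, and the curve of the members runs between the other two over most of the range.

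Short motifs of the 5 transcription factors assayed elsewhere in the series, and the TATA box, were searched in the same windows on both strands, none of the 6 motifs containing another. The letters of SP1 (GGGCGG) were in 15 members (19.7%), 7.47% of the other silent genes and 47.5% of all promoters. MAX (CACGTG) was in 5 members (6.58%, against 3.03% and 8.18%) and YY1 (AAGATGG) in 5 (6.58%, against 6.69% and 6.53%). GABPA (CCGGAAG) was in 1 (1.32%, against 2.04% and 12.2%), and NRF1 (GCGCATGC) was in 0 members, 0.522% of the other silent genes and 3.72% of all. TATAAA was in 19 members (25.0%), 25.4% of the other silent genes and 2303 of all 17657 promoters. These are matches of letters in a window and say nothing of binding.

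Dependence on genotype was examined as TKO against wild type among the TSA libraries. The rule bears on this contrast too, because a sum of 10 counts can come from 1 genotype. Wild type alone reached 10 counts for 15 members, TKO alone for 22, each genotype for 12 and neither for 48. Of the 6 members past the low-count filter, edgeR called 1 higher in TKO and 0 lower, at a background of 10.0% higher and 8.38% lower among the 15822 genes tested. That member was Cypt2, which had reached 10 counts in each genotype but passed the filter through its TKO libraries, its wild type counts being 5 and 8. In the unfiltered fit, where no filter admits it, its log2 difference was 2.46 ± 0.51 (SE, edgeR adjusted p = 0.00221), and in the filtered fit 2.47 ± 0.49 (SE, edgeR adjusted p = 0.00927). Without TSA replicate 1 of wild type the edgeR adjusted p was 0.062 unfiltered and 0.0907 filtered, and without replicate 2 of TKO it was 0.0529 and 0.0781. By DESeq2 it was 0.0575. The other members past the filter, 1700086L19Rik, Krtap4-13, Pglyrp2, Kcne1 and Slamf7, were not called, with log2 differences from 0.01 to 1.25.

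Without the filter, edgeR called 7 of the 97 members higher in TKO and 0 lower, beside 8.37% higher and 7.33% lower among the 20430 genes in the fit. Of the 7, all but Cypt2 reached 10 counts only through TKO and so entered by the group in which they are high. For these 6 the calls are a description and no independent test. The 7 calls also depended on single libraries, there being 0 without wild type TSA replicate 1, 3 without its replicate 2 and 1 without TKO TSA replicate 2. DESeq2 gave 5 members an adjusted p and called 0, with 3 at an unadjusted p below 0.05, against 16 in the unfiltered edgeR fit.

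No direction over the members as a set held without single libraries. The median log2 difference was 0.26 over the members and 0.00 over all genes in the unfiltered fit. Of 97 members, 61 had the higher fitted level in TKO, and 56 under the upper quartile and total count scalings. By summed counts, 56 had more reads in TKO, 34 had more in wild type and 7 were equal. The rule shapes these numbers, since 22 members reached 10 counts only through TKO and 15 only through wild type. They are descriptions and no test of a direction. Without wild type TSA replicate 1 the members' median was -0.06, with 47 of 97 higher in TKO. It was 0.06 with 49 higher without TKO TSA replicate 2, 0.85 with 68 higher without wild type TSA replicate 2, and 0.54 with 65 higher without TKO TSA replicate 1.

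Of the 6 described members, 4 had no count in either wild type TSA library. A count of 0 in those 2 libraries allows up to 3 counts, or 0.104 CPM, and folds against that limit are scaled by total counts. They take the TKO counts as observed, although the rule selected them, and so are not minimum folds. Lgsn had 8 and 14 counts in TKO, 7.25-fold above the limit. Mrgprx2, a receptor gene of the Mas-related family known from sensory neurons and mast cells, had 12 and 8 counts, 6.59-fold above it. The pseudogenes Gm6289, named Clca4c-ps in RefSeq, with 7 and 5 counts, and Nlrp1c-ps, with 6 and 5, were 3.96-fold and 3.63-fold above it. The remaining pair had few wild type reads, Slc22a28 having 1 and 1 counts against 8 and 14 in TKO, and the non-coding RNA gene 4930568E12Rik having 0 and 1 against 6 and 10. Krtap19-4 and Ugt2b34, a glucuronosyltransferase gene of liver with 0 and 0 against 2 and 9 counts, also had no wild type count and were not called. No member was without a count in both TKO libraries.

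The promoters of 3 of these members are printed to show that CpG content differed among the calls. Mrgprx2 (chr7:48499221-48499520, minus strand) holds 0 CpG sites, Lgsn (chr1:31176185-31176484, plus strand) holds 4, and 4930568E12Rik (chr9:13105806-13106105, minus strand) holds 15, in the same build, window and capitals as above.
Mrgprx2: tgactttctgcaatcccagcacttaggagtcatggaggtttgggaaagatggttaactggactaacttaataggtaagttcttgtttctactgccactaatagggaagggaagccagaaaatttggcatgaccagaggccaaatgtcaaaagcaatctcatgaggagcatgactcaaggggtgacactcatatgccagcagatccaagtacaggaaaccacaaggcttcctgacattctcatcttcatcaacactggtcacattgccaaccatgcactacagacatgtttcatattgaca
Lgsn: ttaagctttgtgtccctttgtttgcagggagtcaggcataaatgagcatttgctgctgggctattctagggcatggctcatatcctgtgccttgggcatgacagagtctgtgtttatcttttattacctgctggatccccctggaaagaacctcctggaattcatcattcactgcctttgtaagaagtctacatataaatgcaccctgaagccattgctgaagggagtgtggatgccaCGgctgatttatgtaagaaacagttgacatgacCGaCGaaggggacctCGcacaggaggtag
4930568E12Rik: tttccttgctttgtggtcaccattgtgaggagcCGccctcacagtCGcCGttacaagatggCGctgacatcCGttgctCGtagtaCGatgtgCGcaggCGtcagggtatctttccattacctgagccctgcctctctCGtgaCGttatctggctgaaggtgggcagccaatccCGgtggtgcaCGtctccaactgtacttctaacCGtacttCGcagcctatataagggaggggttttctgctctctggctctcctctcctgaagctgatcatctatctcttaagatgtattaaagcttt
With the 2 sites of Cypt2 and the single site of Slc22a28, the called members with a promoter window ranged from 0 to 15 CpG sites.

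Counted by overlap of libraries, 27 members (27.8%) had both TKO libraries above both wild type ones and 15 (15.5%) had both below. Over all 20430 genes with a count, 28.2% were above and 27.3% below. The share of members above was near the background, and the share below was under it. The rule shapes both shares, since members could enter through 1 genotype, and the background was not matched for number of reads. Nothing is read from either. With 2 libraries against 2, the smallest p that an exact two-sided permutation test of 1 member can reach is 0.33.

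**Figure D5:**
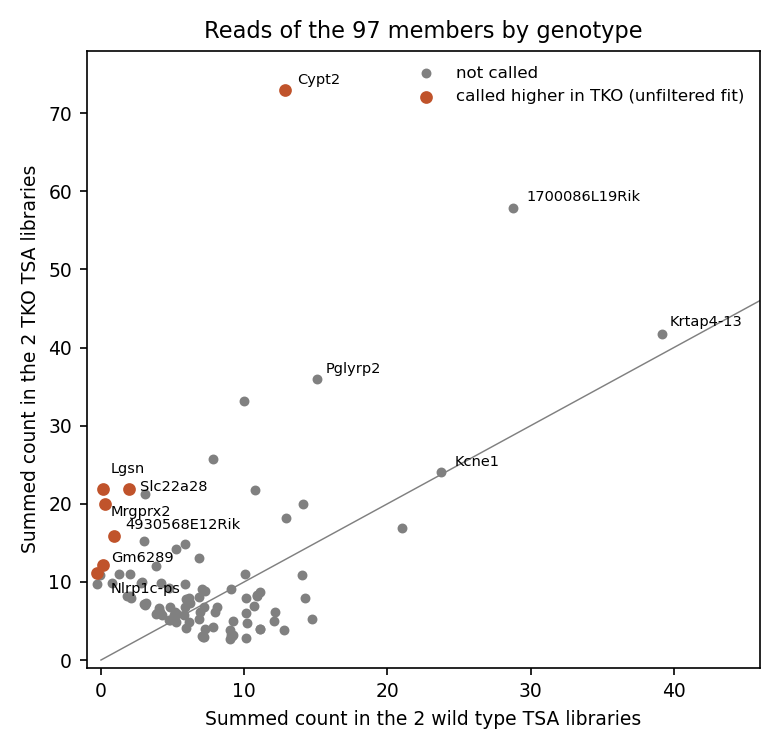
Summed count in the 2 wild type TSA libraries (horizontal axis) and the 2 TKO TSA libraries (vertical axis) for each of the 97 members, with a small random offset so that equal values do not hide each other. The line marks equal counts, and the 7 members called higher in TKO in the unfiltered edgeR fit are in orange, Cypt2 standing apart at 13 and 73 counts.

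Markers of other cell states were summed in the same libraries. The 8 genes of 2-cell-like cells, a rare state of embryonic stem cell cultures, came to 8.48 to 13.4 CPM in DMSO, 134 to 229 CPM in wild type TSA and 309 to 418 CPM in TKO TSA. All 8 were called higher with TSA by edgeR in each genotype. Over all 15822 genes past the low-count filter, 27.0% were called higher with TSA in wild type and 30.8% in TKO. The 7 markers of fibroblast feeder cells summed to 33.4 to 40.8 CPM in wild type DMSO, 65.6 to 81.1 in wild type TSA, 6.40 to 6.84 in TKO DMSO and 28.7 to 45.2 in TKO TSA, with Dcn at 0 in TKO TSA. With TSA, 3 of these 7 were called higher and 1 lower in wild type, and 6 higher and 0 lower in TKO. For 6 primitive endoderm markers the sums were 13.8 to 16.4, 24.0 to 26.3, 36.1 to 38.0 and 44.8 to 53.5 CPM in the same order, with 2 called higher and 0 lower with TSA in each genotype. With so few genes, the endoderm calls and the feeder calls in wild type were near the shares of all genes. Nothing is read from them. The part of these states in the members' reads was not tested.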

How the data were processed

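RNA-seq was compared in 8 libraries of 4 groups. Per the submitters' processing notes, reads were handled with TopHat2 2.0.13 on mm10, featureCounts 1.4.5-p1 and edgeR 3.22.3; which setting each had, and whether counting used the strand or reads with several matches, is not given in the sources used here. The authors deposited whole read counts per gene, and the exon length in bases, a further value (other) of that table, was also read as deposited. Gene types and promoter windows came from RefSeq (GRCm38.p6), matched by symbol or synonym.

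For tests, edgeR 4.0.16 (R 4.3.3) fitted to the counts a quasi-likelihood model of 4 group means over all 8 libraries (4 residual degrees of freedom), with TMM scaling, the filterByExpr filter (minimum count 10) and Benjamini-Hochberg adjustment over every gene in the fit. Calls used an adjusted p under 0.05, and tests were two-sided. Standard errors were derived from the F statistic. DESeq2 1.42.0, other scalings, a replicate block and the omission of each library were tried. No pair of replicates agreed within sampling noise (chi-square per degree of freedom 5.28 to 12.2). The labels number the replicates alike in all groups, and a check by correlation of whether equal numbers pair the libraries is given with the alternatives.

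The members, the tissue lists and the tests were chosen with earlier results of these data known. Named genes were the 12 members with the highest mean level, members called by genotype, members of tissue lists, runs or families, and genes at the edge of the rule. Other members named with their classes were chosen after their values were seen. Floors of 3 counts cover counting error only, since PCR reads are not independent molecules.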

Additional observations from a re-analysis of the deposited data

How the results depend on the processing

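The number of member genes was 238 and 22 with a summed TSA count of at least 5 and 20, and 208 and 516 with up to 1 and 3 counts allowed over the DMSO libraries. It ran from 49 (without TKO TSA replicate 2) to 147 (without TKO DMSO replicate 1) when 1 library was left out, where by construction fewer libraries had to be silent or could be summed. Requiring a count in 3 TSA libraries gave 91 genes and leaving out no prefix gave 106. The members' summed level in each TSA library moved by less than the spread between replicates under each scaling tried and without the 3 most abundant members. The counts of members with separated genotypes were 27 and 15 under each scaling.

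For TKO against wild type with TSA, 1 member was called higher under the RLE, upper quartile and total count scalings and in the 4 TSA libraries alone, 7 without the low-count filter and 0 by DESeq2. Leaving out 1 library gave 0 to 4 higher, with 7 to 16 members past the filter, and 0 lower. Without the filter the count of 7 ran from 0 to 7 by the same omissions, and was 6 or 7 under the other scalings. All unfiltered alternatives were added after seeing the data. No fitted difference of a called member changed sign. For Lgsn, Mrgprx2, Gm6289 and Nlrp1c-ps, with no wild type count under TSA, no setting could have changed it. All called members but Cypt2 reached 10 counts only through TKO, so the constant sign supports nothing for them. For TSA against DMSO, a description since the rule used that contrast, without the filter 33 and 42 members were called in wild type and TKO and by DESeq2 10 and 12, in place of 6 and 6, and leaving out 1 library gave 4 to 11 and 7 to 16. The 4 TSA libraries alone give no value for that contrast.

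Equal replicate numbers correlated in their deviations from the group means at r = 0.0605 to 0.363 over the pairs of groups, with 2 libraries each. All these values were positive, and the check does not settle whether equal numbers pair the libraries. The main fit left them unpaired. Over all genes past the filter, the replicate block gave 2229 called higher and 1868 lower in TKO with TSA, against 1584 and 1326 in the main fit. With the replicate block, edgeR called 1 member higher in TKO past the filter, 7 without it, and 6 in each TSA contrast. In the filtered fit with the block, Cypt2 differed by 2.45 on the log2 scale with an edgeR adjusted p of 0.0017. Cypt2 passed that filter through its TKO libraries, and the pairing behind the block is not established.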
